A study of Mus musculus with 12 samples.

Results

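The mesenchymal transition genes described here are Vim, Cdh2, Zeb1, Zeb2, Snai1, Snai2, Twist1 and Twist2. They were chosen by symbol, as the rows of the count tables whose Ensembl identifier maps to these 8 mouse genes, with no threshold on a measured value. All 8 were found among the 49315 gene identifiers counted in each tumor, and all 8 passed the filter on low counts in every comparison.

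Bulk RNA sequencing had been performed on 12 subcutaneous tumors grown from TRAMP-C2, a mouse prostate cancer cell line, and the line is the only tumor model of the data. Male C57BL/6J mice of 6 to 8 weeks were injected with 5000000 cells, and tumors of about 200 mm3 were treated intratumorally and collected on day 6. The combination group (3 tumors: 20L, 22 and 28LL) received 3 doses of 50 µg ADU-S100 and 2 doses of 10 µg cyto-IL-15. Tumors 17LL, 18R and 22LR made up the ADU-S100 group and received 3 doses of 50 µg ADU-S100, a cyclic dinucleotide that activates STING. The cyto-IL-15 group (9R, 13 and 20LL) received 2 doses of 10 µg cyto-IL-15, an interleukin-15 that is anchored to cell membranes. The HBSS group (19, 22R and 22LL) received 3 doses of 50 µl Hanks' balanced salt solution, the vehicle. The labels name each tumor but not whether any shared an animal, so the p-values measure the spread between these tumors.

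In the epithelial to mesenchymal transition, epithelial cells loosen their junctions and take on the shape and motility of mesenchymal cells. The zinc finger proteins Snai1 and Snai2, the zinc finger homeobox proteins Zeb1 and Zeb2 and the basic helix-loop-helix proteins Twist1 and Twist2 are the best known transcription factors of this process. They bind E-boxes and repress epithelial genes such as Cdh1 (E-cadherin), while Cdh2 (N-cadherin) and the intermediate filament protein vimentin (Vim) are its usual mesenchymal readouts. The same genes are also used by cells that are mesenchymal by origin. Fibroblasts express Vim, Twist1, Twist2, Zeb1 and Snai2, pericytes express Cdh2, and macrophages and natural killer (NK) cells express Zeb2. In bulk tumor RNA, fewer cells of a type and less RNA per cell cannot be told apart.

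The Snai and Zeb proteins bind the E-box that reads CACCTG on one strand and CAGGTG on the other, and these letters were searched on both strands in windows of 300 bases around the RefSeq gene starts (250 bases before to 50 after, build GRCm38.p6). Windows of 5 of the 8 genes were searched, namely Vim, Zeb2, Snai1, Twist1 and Twist2. The chromosome of Cdh2 and Zeb1 was left out of the search, and no window was found for Snai2. The motif occurred once in the window of Snai1, with its first base 126 bases before the start (position -126), and in none of the windows of the other 4 genes. Of 32851 windows of the same length over the genome, again without the chromosome of Cdh2 and Zeb1, 20.2% held it. The windows of Snai1, Twist1 and Twist2 are printed because Snai1 was the steadiest of the 8 genes across the tumors, Twist2 was among the most variable and Twist1 is its closest relative, with the E-box in capitals.
Snai1 (chr2:167537945-167538244, plus strand): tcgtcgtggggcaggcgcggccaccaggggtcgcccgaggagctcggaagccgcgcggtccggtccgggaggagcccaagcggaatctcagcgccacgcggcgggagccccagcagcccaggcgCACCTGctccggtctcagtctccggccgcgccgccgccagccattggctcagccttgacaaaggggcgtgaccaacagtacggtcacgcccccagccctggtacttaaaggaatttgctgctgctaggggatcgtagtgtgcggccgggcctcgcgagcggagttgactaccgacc
Twist1 (chr12:33957421-33957720, plus strand): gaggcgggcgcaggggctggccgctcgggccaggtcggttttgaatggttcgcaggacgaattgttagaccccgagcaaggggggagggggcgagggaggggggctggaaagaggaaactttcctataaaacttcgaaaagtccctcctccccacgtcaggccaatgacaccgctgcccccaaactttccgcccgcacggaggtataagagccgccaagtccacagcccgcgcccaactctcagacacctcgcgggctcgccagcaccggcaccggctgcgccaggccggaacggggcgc
Twist2 (chr1:91801211-91801510, plus strand): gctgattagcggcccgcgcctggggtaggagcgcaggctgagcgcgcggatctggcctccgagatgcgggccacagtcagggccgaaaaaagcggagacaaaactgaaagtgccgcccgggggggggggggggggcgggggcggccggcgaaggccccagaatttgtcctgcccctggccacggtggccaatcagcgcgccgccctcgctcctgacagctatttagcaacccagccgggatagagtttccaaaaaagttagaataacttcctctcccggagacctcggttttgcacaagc
These windows are rich in G and C, with 70.0% in Snai1, 66.0% in Twist1 and 64.7% in Twist2. A match is a description of the letters and not a measured binding site, and no match in a window of this length says nothing of the rest of the gene.

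Total counts per tumor ranged from 48772204 to 103700199. The labelled prostate origin was checked against markers of prostate epithelium. Pbsn (probasin), a defining gene of this epithelium, was at 0 in 11 of 12 tumors and at 0.0163 CPM (the read count scaled by library size) in the other, while the luminal keratin Krt8 was at 2.18 to 144 CPM with a median of 4.62 CPM. Tumor 13 of the cyto-IL-15 group and tumor 28LL of the combination group stood apart from the other tumors. Yap1 was at 37361 CPM in tumor 13, 5046 CPM in tumor 22LL and 1141 CPM in tumor 28LL, and at 96.6 to 143 CPM in the other 9. Skeletal muscle fiber genes summed to 3867 CPM and neutrophil genes to 246 CPM in tumor 28LL, and fibroblast genes had their lowest sums in tumors 28LL (5114 CPM) and 13 (8203 CPM). Values that moved most without one of these tumors are given with and without it. All CPM values of genes were normalized by the trimmed mean of M values (TMM) over the 12 tumors.

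All 8 genes were expressed in the HBSS-treated tumors. Per length, in TPM, which scales the counts by the gene lengths of the count tables as well as by library size, the HBSS-treated tumors had 1446 to 2027 TPM of Vim, 91.7 to 105 TPM of Twist1, 40.2 to 51.6 TPM of Snai1 and 37.2 to 51.2 TPM of Zeb1. They had 26.3 to 37.3 TPM of Snai2, 17.2 to 21.7 TPM of Zeb2, 10.9 to 23.6 TPM of Cdh2 and 8.78 to 11.3 TPM of Twist2. Vim and Twist1 stood clear of each other and of the rest, and Snai2 stood above Zeb2. The ranges of the neighbours Snai1 and Zeb1, Zeb1 and Snai2, Zeb2 and Cdh2, and Cdh2 and Twist2 overlapped in this order of levels. Vim made up 84.3 to 92.6% of the summed TPM of the 8 genes in every tumor. The lengths count every annotated exon of a gene, and the length of Zeb2 was the largest at 19942 bases, so the TPM of a gene with many isoforms is a low estimate.

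**Figure D1:**
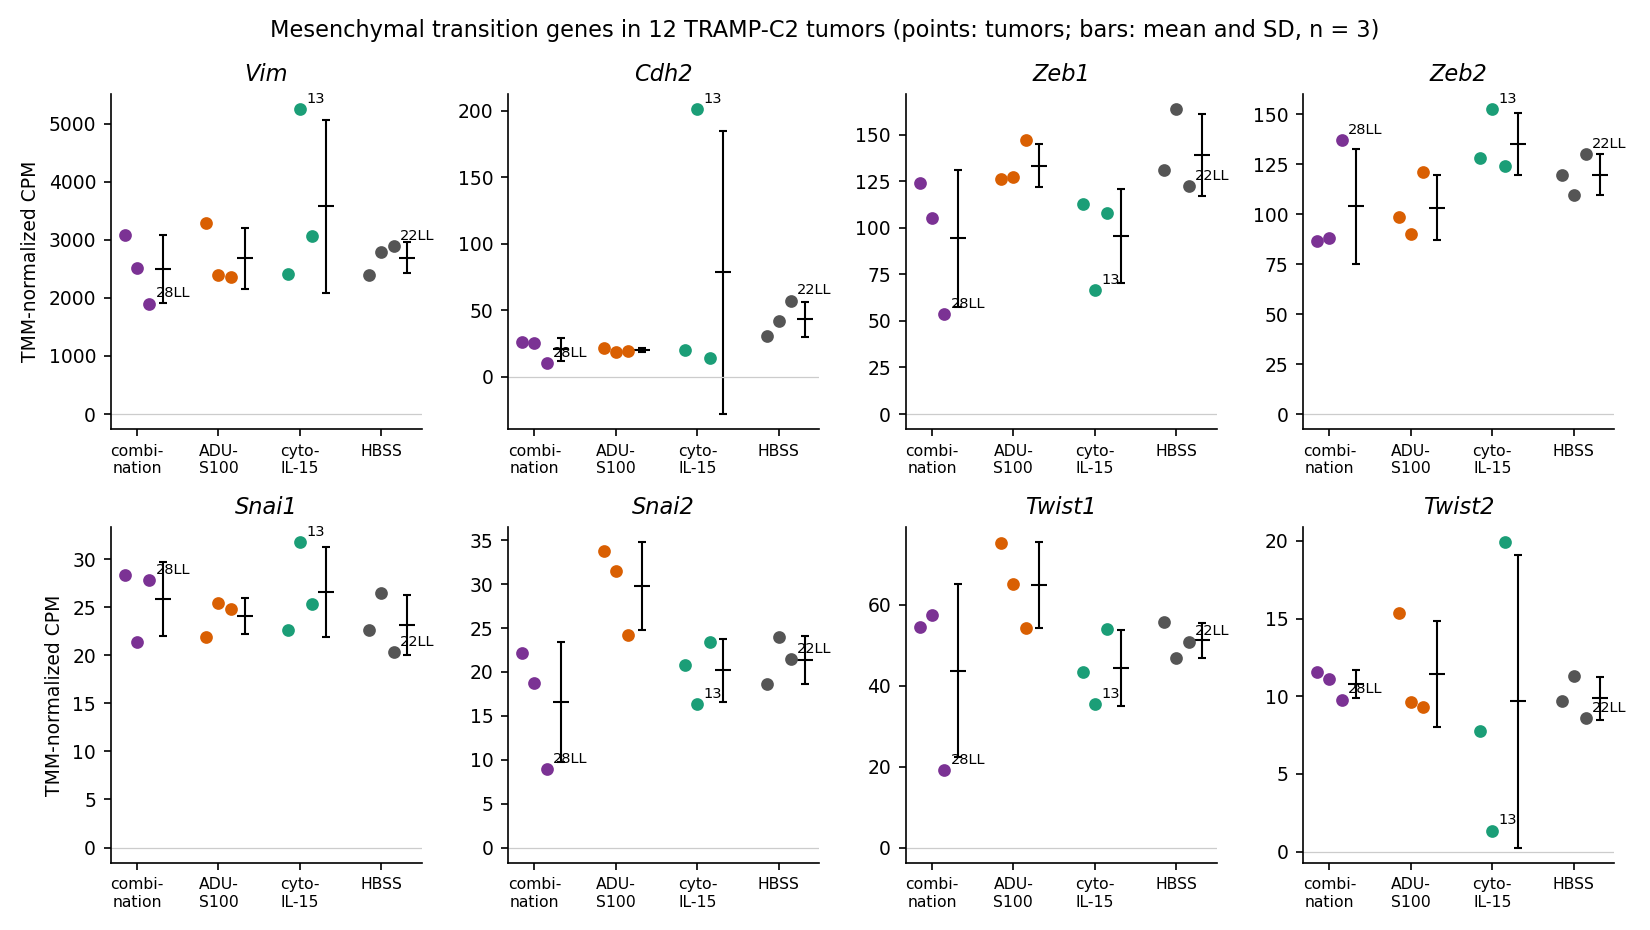
TMM-normalized CPM (vertical axes, linear, a separate scale for each gene) of the 8 genes in the 12 tumors, by treatment group. Points are tumors, with tumors 13, 28LL and 22LL marked, and bars are the mean and SD of 3 tumors, which for Cdh2 in the cyto-IL-15 group extends below 0. Cdh2 lay at 18.4 to 21.7 CPM in the ADU-S100 group, against 30.6 to 57.2 CPM in the HBSS group, and tumor 13 reached 201 CPM.

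The comparison of ADU-S100 with HBSS asks what STING activation alone did to the tumors. It was the only one in which any of the 8 genes passed the test (edgeR quasi-likelihood test, adjusted p under 0.05 and absolute log2 fold change above 1). In several others, the combination and cyto-IL-15 against HBSS among them, edgeR called no gene at all, so none of the 8 could pass there. Cdh2, which encodes the homophilic adhesion molecule N-cadherin, fell with ADU-S100. It was at 21.7, 18.4 and 19.6 CPM in the ADU-S100-treated tumors, against 30.6, 41.6 and 57.2 CPM in the HBSS-treated tumors. All 3 ADU-S100-treated tumors lay below all 3 HBSS-treated tumors, and they were close to each other whereas the HBSS-treated tumors were spread. The means were 19.9 ± 1.66 CPM with ADU-S100 and 43.1 ± 13.3 CPM with HBSS (SD, n = 3 each), a log2 fold change of -1.11 (SE 0.22, edgeR adjusted p = 0.0249). Thus 1 of the 8 genes was called, beside 3.53% of the 18911 genes tested, and 3 of the 8 had an unadjusted edgeR p under 0.05, beside 23.9% of all genes.

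The call of Cdh2 rested on nearly all of the 6 tumors. With DESeq2 on the same tumors, which called 5.58% of 20079 genes, Cdh2 had a log2 fold change of -1.14 and an adjusted p of 1.04e-05. Without HBSS tumor 22LL, which had the most Cdh2 of its group, the log2 fold change was -0.86 with an edgeR adjusted p of 0.0524. The edgeR adjusted p was 0.0688 without tumor 22R, 0.0562 without 17LL, 0.0836 without 18R and 0.0596 without 22LR, and it was 0.0149 without tumor 19. Fitted with all 12 tumors, whose shared spread includes tumor 13, the adjusted p was 0.738 in edgeR and 0.679 in DESeq2 at log2 fold changes of -1.12 and -1.13, and without tumors 13 and 28LL it was 0.0176 in edgeR.

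Several cell type markers differed between the ADU-S100 and HBSS groups along with Cdh2. The 6 pericyte genes summed to 180 to 266 CPM with ADU-S100, against 309 to 535 CPM with HBSS. The epithelial keratin Krt8 was at 4.82, 3.48 and 2.58 CPM with ADU-S100, against 6.34, 6.74 and 144 CPM with HBSS. The epithelial gene Cdh1 went the other way, at 4.42, 4.56 and 6.62 CPM, against 3.95, 2.77 and 3.27 CPM with HBSS. The highest Krt8 value was that of tumor 22LL, in which 5 keratinocyte genes summed to 129 CPM, nearly all of it Krt14 at 125 CPM. The 6 skeletal muscle fiber genes summed to 137 to 1469.7 CPM with ADU-S100, against 3.27 to 4.12 CPM with HBSS. The part of pericytes, epithelial cells, muscle and the high Yap1 of tumor 22LL in the Cdh2 result was not tested.

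Snai2 (Slug), a SNAG domain repressor, was at 33.8, 31.4 and 24.2 CPM in the ADU-S100-treated tumors, against 18.6, 24.0 and 21.5 CPM in the HBSS-treated tumors. The groups did not overlap, but tumor 22LR lay just above the highest HBSS-treated tumor. The log2 fold change was 0.48 (SE 0.16, edgeR unadjusted p = 0.0145, adjusted p = 0.108), which did not pass the test. Without a filter on low counts the edgeR adjusted p was 0.0444, at a fold change still under the threshold. Counting groups without overlap, Cdh2 and Snai2 made 2 of the 8 genes, beside 31.5% of all genes tested.

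Twist1, a helix-loop-helix factor that pairs with E proteins, was at 75.4, 65.2 and 54.2 CPM with ADU-S100, against 55.7, 47.0 and 50.9 CPM with HBSS. Tumor 22LR lay among the HBSS-treated tumors, and the log2 fold change of 0.35 (SE 0.14, edgeR unadjusted p = 0.0374, adjusted p = 0.180) did not pass the test. Twist1 and Snai2 thus had the same order within the ADU-S100 group, with tumor 17LL highest and 22LR lowest. Twist2 was at 15.4, 9.64 and 9.30 CPM with ADU-S100, against 9.71, 11.3 and 8.59 CPM with HBSS (log2 fold change 0.22, SE 0.23), and its groups overlapped.

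The other 4 genes were near the level of the HBSS-treated tumors. Vim had a log2 fold change of 0.00 (SE 0.16), although without tumor 17LL, the highest at 3289.8 CPM, it was -0.18. Zeb1 had a log2 fold change of -0.06 (SE 0.13), Zeb2 of -0.21 (SE 0.14) and Snai1 of 0.06 (SE 0.13), with edgeR adjusted p-values from 0.388 to 0.997 for these 4 genes. A p that misses the threshold does not show that the levels were alike. The median log2 fold change of the 8 genes was 0.03, and it was 0.03 over all genes tested.

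**Figure D2:**
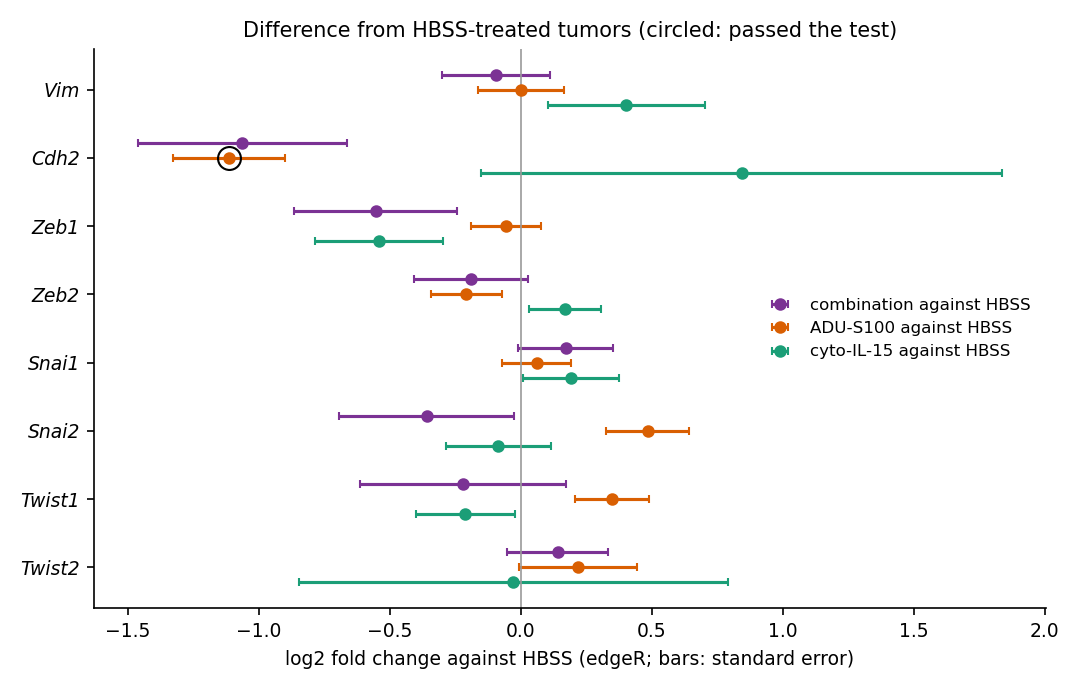
Log2 fold change of each gene against the HBSS group (horizontal axis) with its edgeR standard error (bars), for the combination, ADU-S100 and cyto-IL-15, each fitted on its own 6 tumors with the same 3 HBSS-treated tumors as control. The circle marks Cdh2 with ADU-S100 at -1.11, the only value that passed the test. With the combination and with cyto-IL-15, edgeR called no gene at all. The bar of Cdh2 with cyto-IL-15 is the widest, with an SE of 1.00.

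The combination was compared with HBSS to see what both agents did together, and none of the 8 genes passed the test, beside 0.0% of the 18565 genes tested. At an unadjusted edgeR p under 0.05 there was 1 of the 8 genes and 18.2% of all genes. DESeq2 on the 6 tumors called 0 of the 8 and 5.5% of all genes, and edgeR without tumor 28LL called 0 of the 8 and 1.3% of all genes. The gene with the low unadjusted p was Cdh2, at 26.1, 25.2 and 10.4 CPM in the combination-treated tumors, against 30.6, 41.6 and 57.2 CPM in the HBSS-treated tumors. All 3 combination-treated tumors lay below all 3 HBSS-treated tumors, with tumor 28LL the lowest of the 12. The log2 fold change was -1.06 (SE 0.40, edgeR unadjusted p = 0.0352, adjusted p = 0.248), and it was -0.75 without tumor 28LL. Cdh2 was the only one of the 8 whose groups did not overlap, beside 30.1% of all genes tested.

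In this comparison, too, the summed pericyte genes were lower, at 171 to 253 CPM with the combination, against 309 to 535 CPM with HBSS. The sum of the 7 fibroblast genes was lower as well, at 5114 to 9432 CPM, against 11352 to 15049 CPM. The most abundant of these 7, Col1a2, was at 5642, 5694 and 3351 CPM with the combination, against 9038, 10693 and 8426 CPM with HBSS. The groups overlapped for Dpt, at 483, 555 and 91.5 CPM, against 564, 787 and 468 CPM. Within the combination group, tumor 28LL had the least Cdh2 and the highest pericyte sum. The pericyte sums of the cyto-IL-15 group, from 163 CPM upward, also lay below the HBSS range, and the highest of them was that of tumor 13 with its 201 CPM of Cdh2. The part of pericytes and fibroblasts was not tested. The fibroblast gene Pdgfra was at 110 CPM in tumor 28LL, and at 301 and 406 CPM in the other combination-treated tumors. With HBSS it was at 416, 570 and 336 CPM.

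Zeb1, Snai2 and Twist1 in the combination group were lowest in tumor 28LL. Zeb1 was at 124, 105 and 53.5 CPM with the combination, against 131, 164 and 123 CPM with HBSS (log2 fold change -0.55, SE 0.31). Snai2 was at 22.1, 18.7 and 8.90 CPM with the combination, against 18.6, 24.0 and 21.5 CPM with HBSS (log2 fold change -0.36, SE 0.33). Twist1 was at 54.6, 57.6 and 19.1 CPM with the combination, against 55.7, 47.0 and 50.9 CPM with HBSS (log2 fold change -0.22, SE 0.39). In each case the last of the 3 combination values was that of tumor 28LL, and the other tumors of the group lay within or close to the HBSS range. Without tumor 28LL the log2 fold change was -0.28 for Zeb1, -0.06 for Snai2 and 0.14, of the opposite sign, for Twist1.

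Zeb2 showed another order. It was at 86.5, 88.1 and 137 CPM with the combination, against 119.5, 109.7 and 130.0 CPM with HBSS (log2 fold change -0.19, SE 0.22), and here tumor 28LL was the highest of its group, so that without it the log2 fold change was -0.45 (edgeR adjusted p = 0.0820). The 7 macrophage genes, a cell type that uses Zeb2, summed to 3439 CPM in tumor 28LL and the 6 NK and T cell genes to 422 CPM, the highest sums of the combination group. In tumor 13, which had the most Zeb2 of the 12, the sums were the lowest of the 12, at 1246 CPM for macrophage genes and 16.3 CPM for NK and T cell genes. The part of these cells in the Zeb2 levels was not tested. Vim was at 3083, 2521 and 1904 CPM with the combination, against 2389.6, 2797 and 2889.5 CPM with HBSS (log2 fold change -0.10, SE 0.21, and 0.06 without tumor 28LL). Snai1 had a log2 fold change of 0.17 (SE 0.18) and Twist2 of 0.14 (SE 0.19). The median of the 8 genes was -0.21, against 0.01 over all genes tested.

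The comparison of cyto-IL-15 with HBSS asks what interleukin-15 alone did, and none of the 8 genes passed the test, beside 0.0% of the 18594 genes tested. None of the 8 had an unadjusted edgeR p under 0.05, against 3.8% of all genes. DESeq2 on the 6 tumors called 0 of the 8 and 0.633% of all genes, and edgeR without tumor 13 called 0 of the 8 and 0.917% of all genes. Zeb1 was the only one without overlap, beside 10.6% of all genes tested. Zeb1 was at 113, 66.4 and 108 CPM in the cyto-IL-15-treated tumors, against 131, 164 and 123 CPM in the HBSS-treated tumors, all 3 below the lowest HBSS-treated tumor. Its log2 fold change was -0.54 (SE 0.24, edgeR unadjusted p = 0.0651, adjusted p = 0.898), and the log2 fold change was -0.33 without tumor 13.

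Most of the other values of this comparison depended on tumor 13. Cdh2 was at 20.2, 201 and 13.7 CPM with cyto-IL-15, against 30.6, 41.6 and 57.2 CPM with HBSS, so that tumor 13 was the highest of all tumors and the other 2 lay below every HBSS-treated tumor. The log2 fold change was 0.84 (SE 1.00, edgeR adjusted p = 0.903) with tumor 13 and -1.34 (adjusted p = 0.162) without it. Twist2 was at 7.79, 1.36 and 19.9 CPM with cyto-IL-15, against 9.71, 11.3 and 8.59 CPM with HBSS, so that the group held the lowest (tumor 13) and the highest (tumor 20LL) of the 12 tumors. Its log2 fold change was -0.03 (SE 0.82) with tumor 13 and 0.49 without it.

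Vim was at 2419, 5262 and 3062 CPM with cyto-IL-15, against 2389.6, 2797 and 2889.5 CPM with HBSS, with tumor 13 again the highest of the 12. Its log2 fold change was 0.40 (SE 0.30) with tumor 13 and 0.03 without it. Zeb2 had a log2 fold change of 0.17 (SE 0.14, and 0.08 without tumor 13), Snai1 of 0.19 (SE 0.18, and 0.05 without it), Snai2 of -0.09 (SE 0.20, and 0.05 without it) and Twist1 of -0.21 (SE 0.19, and -0.067 without it). The median of the 8 genes was 0.07, against 0.04 over all genes tested.

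**Figure D3:**
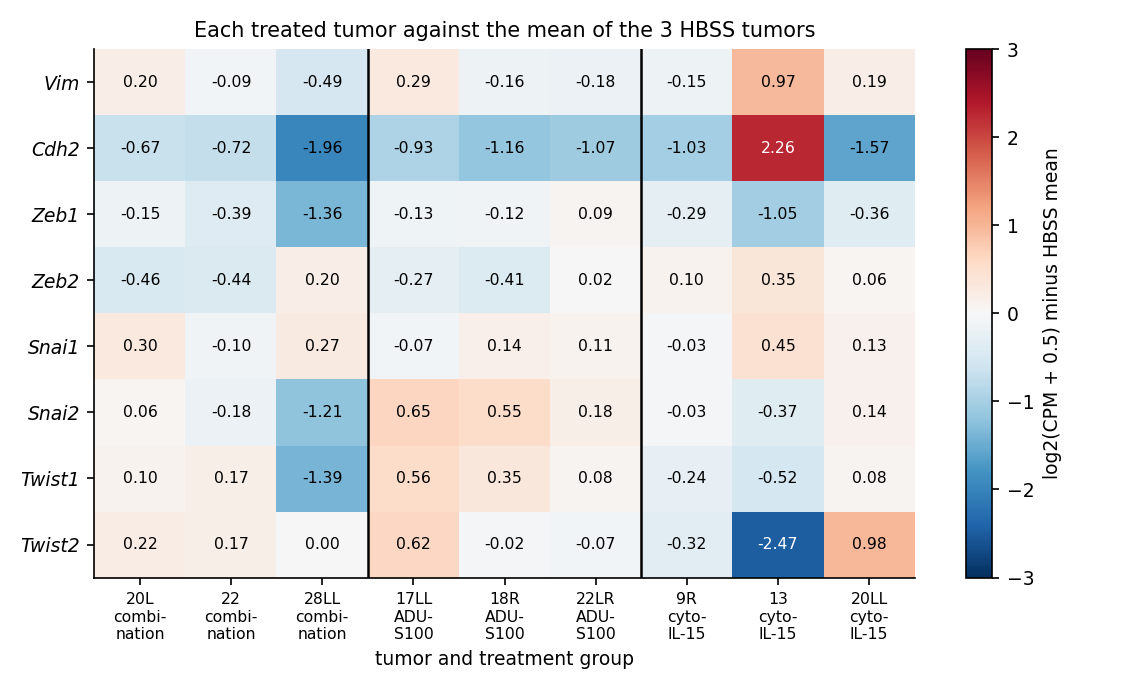
Difference of log2(CPM + 0.5) of each treated tumor from the mean of the 3 HBSS-treated tumors, for the 8 genes (rows) and 9 tumors (columns, by group). Red is higher and blue is lower than HBSS. Tumor 13 was higher for Cdh2 (2.26) and lower for Twist2 (-2.47), and tumor 28LL was lower for Cdh2 (-1.96), Twist1 (-1.39), Zeb1 (-1.36) and Snai2 (-1.21).

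Across the 12 tumors the 8 genes did not move as a block. Tumor 28LL had the lowest level of Vim, Cdh2, Zeb1, Snai2 and Twist1, but the second highest of Zeb2. Tumor 13 had the highest level of Vim, Cdh2, Zeb2 and Snai1, the second lowest of Zeb1, Snai2 and Twist1, and the lowest of Twist2. The related factors Zeb2 and Zeb1 thus parted in both tumors, and so did Snai1 and Snai2. In tumor 13 the readouts Vim and Cdh2 were high while Zeb1, Snai2, Twist1 and Twist2 were low.

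The spread differed as much between genes. The highest tumor had 19.4 times the CPM of the lowest for Cdh2 and 14.6 times for Twist2, but 1.56 times for Snai1 and 1.77 times for Zeb2. Without tumors 13 and 28LL these ratios were 4.17 for Cdh2, 2.56 for Twist2, 1.40 for Snai1 and 1.39 for Vim. By this measure Cdh2 was the most variable of the 8 genes with or without these tumors. Snai1 was the steadiest over the 12 tumors, and Vim and Snai1 were nearly alike without these tumors.

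Markers of fibroblasts, which express several of the factors, were unequal in these tumors. In tumor 13, Pdgfra (45.1 CPM), Dpt (7.44 CPM), Dcn, Lum and Pi16 were the lowest of the 12 tumors, 5 of the 7 fibroblast genes, while Col1a2 was at 7772 CPM, within the range of the other tumors. In tumor 28LL, Col1a2 (3351 CPM) was the lowest of the 12 and Pdgfra (110 CPM) and Dpt (91.5 CPM) were the second lowest, while Thy1 (722 CPM) and Pi16 (24.6 CPM) were the highest of the 12. Twist2 was low in tumor 13 but, at 9.78 CPM, at the HBSS level in tumor 28LL. The part of fibroblasts in these levels was not tested.

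Comparisons between treated groups share tumors with those above. With ADU-S100 against cyto-IL-15, none of the 8 genes passed the test, beside 0.0855% of the 18708 genes tested, and 2 of the 8 had an unadjusted edgeR p under 0.05, against 7.85% of all genes, while DESeq2 called 0 of the 8 and 1.44% of all genes. The genes with a low unadjusted p were Snai2 (29.8 ± 4.97 CPM with ADU-S100 and 20.2 ± 3.59 CPM with cyto-IL-15, log2 fold change 0.54, SE 0.22, adjusted p = 0.615) and Twist1 (64.9 ± 10.6 CPM with ADU-S100 and 44.3 ± 9.40 CPM with cyto-IL-15, log2 fold change 0.53, SE 0.21, adjusted p = 0.615). Groups did not overlap for 4 of the 8 genes, beside 17.0% of all genes tested, with Zeb1, Snai2 and Twist1 higher and Zeb2 lower with ADU-S100. Zeb2 was at 98.7, 89.9 and 121 CPM with ADU-S100, against 128, 153 and 124 CPM with cyto-IL-15 (log2 fold change -0.41, SE 0.18). Cdh2 had a log2 fold change of -2.01 (SE 0.99), which was 0.23 without tumor 13.

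With the combination against cyto-IL-15, none of the 8 genes passed the test, beside 0.0% of the 18619 genes tested, none had an unadjusted edgeR p under 0.05, against 4.97% of all genes, and DESeq2 called 0 of the 8 and 0.564% of all genes. None was without overlap between the groups, beside 12.7% of all genes tested. Cdh2 had the largest log2 fold change of the 8, at -1.91 (SE 1.05), and it was 0.27 without tumor 13. Twist1 was at -0.01 (SE 0.42), and at 0.34 without tumor 28LL.

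With the combination against ADU-S100, which asks what cyto-IL-15 added to STING activation, none of the 8 genes passed the test, beside 0.0% of the 18689 genes tested, while 1 of the 8 had an unadjusted edgeR p under 0.05, against 4.29% of all genes, and DESeq2 called 0 of the 8 and 0.0108% of all genes. Snai2 was at 22.1, 18.7 and 8.90 CPM with the combination, against 33.8, 31.4 and 24.2 CPM with ADU-S100 (log2 fold change -0.84, SE 0.34, edgeR unadjusted p = 0.0467, adjusted p = 0.884). All 3 combination-treated tumors lay below all 3 ADU-S100-treated tumors for Snai2 and for Zeb1 (log2 fold change -0.50, SE 0.30), 2 of the 8 genes, beside 10.9% of all genes tested. Without tumor 28LL the log2 fold change was -0.54 for Snai2 and -0.22 for Zeb1. Cdh2 had a log2 fold change of 0.05 (SE 0.35), and of 0.37 without tumor 28LL.

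Each agent was given to 6 of the 12 tumors, and a fit with both agents as terms used them all. With ADU-S100 given against not given, none of the 8 genes passed the test, beside 1.15% of the 20132 genes tested, and 1 of the 8 had an unadjusted edgeR p under 0.05, against 21.1% of all genes, while DESeq2 called 0 of the 8 and 5.01% of all genes. Cdh2 was at 10.4 to 26.1 CPM (median 20.6) in the tumors given ADU-S100, against 13.7 to 201 CPM (median 36.1) in those not given it, with a log2 fold change of -1.53 (SE 0.57, adjusted p = 0.160) that was -0.53 without tumor 13 and between -1.74 and -0.46 in the alternatives run. With cyto-IL-15 given against not given, none of the 8 passed the test, beside 0.0% of all genes, and 1 of the 8 had an unadjusted edgeR p under 0.05, against 7.67% of all genes, while DESeq2 called 0 of the 8 and 0.359% of all genes. The gene with the low unadjusted p was Zeb1, at 53.5 to 124 CPM (median 107) in the tumors given cyto-IL-15, against 123 to 164 CPM (median 129) in those not given it, with a log2 fold change of -0.52 (SE 0.20, adjusted p = 0.630), which was -0.28 without tumors 13 and 28LL. The interaction of the agents was called for none of the 8 genes and for 0.0% of all genes, with an unadjusted edgeR p under 0.05 for 0 of the 8 and 2.29% of all genes, and DESeq2 called 0 of the 8 and 0.0% of all genes.

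Cdh1 (E-cadherin), the epithelial counterpart of Cdh2 and a target that Snai1, Snai2, Zeb1 and Zeb2 repress, was low in all tumors. It was at 9.29, 11.4 and 22.9 CPM with the combination, at 4.42, 4.56 and 6.62 CPM with ADU-S100 and at 10.4, 6.23 and 8.93 CPM with cyto-IL-15, against 3.95, 2.77 and 3.27 CPM with HBSS. Each of the 9 treated tumors lay above all 3 HBSS-treated tumors. Group by group, 30.1% of all genes tested with the combination, 31.5% with ADU-S100 and 10.6% with cyto-IL-15 did not overlap with HBSS, in either direction. The log2 fold change was 2.14 (SE 0.40, edgeR unadjusted p = 0.0015, adjusted p = 0.185) with the combination. It was 0.65 (SE 0.24, edgeR unadjusted p = 0.0257, adjusted p = 0.147) with ADU-S100 and 1.36 (SE 0.30, unadjusted p = 0.0034, adjusted p = 0.898) with cyto-IL-15. None passed the test, but edgeR called 0.0% of all genes with the combination and with cyto-IL-15, so no gene could pass there. The same holds for cyto-IL-15 given against not given (log2 fold change 1.42, SE 0.25, edgeR unadjusted p = 8.86e-05, adjusted p = 0.600).

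The log2 ratio of Cdh1 to Cdh2 in TPM was -0.67, -0.32 and 1.96 with the combination, -1.48, -1.19 and -0.75 with ADU-S100 and -0.13, -4.20 and 0.20 with cyto-IL-15, against -2.14, -3.09 and -3.31 with HBSS. The ratio exceeded that of every HBSS-treated tumor in 8 of the 9 treated tumors, tumor 13 being the exception. Tumors 28LL and 20LL alone had more Cdh1 than Cdh2. The ratio is given as a description, and the cell types that hold each cadherin cannot be told apart in bulk RNA.

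**Figure D4:**
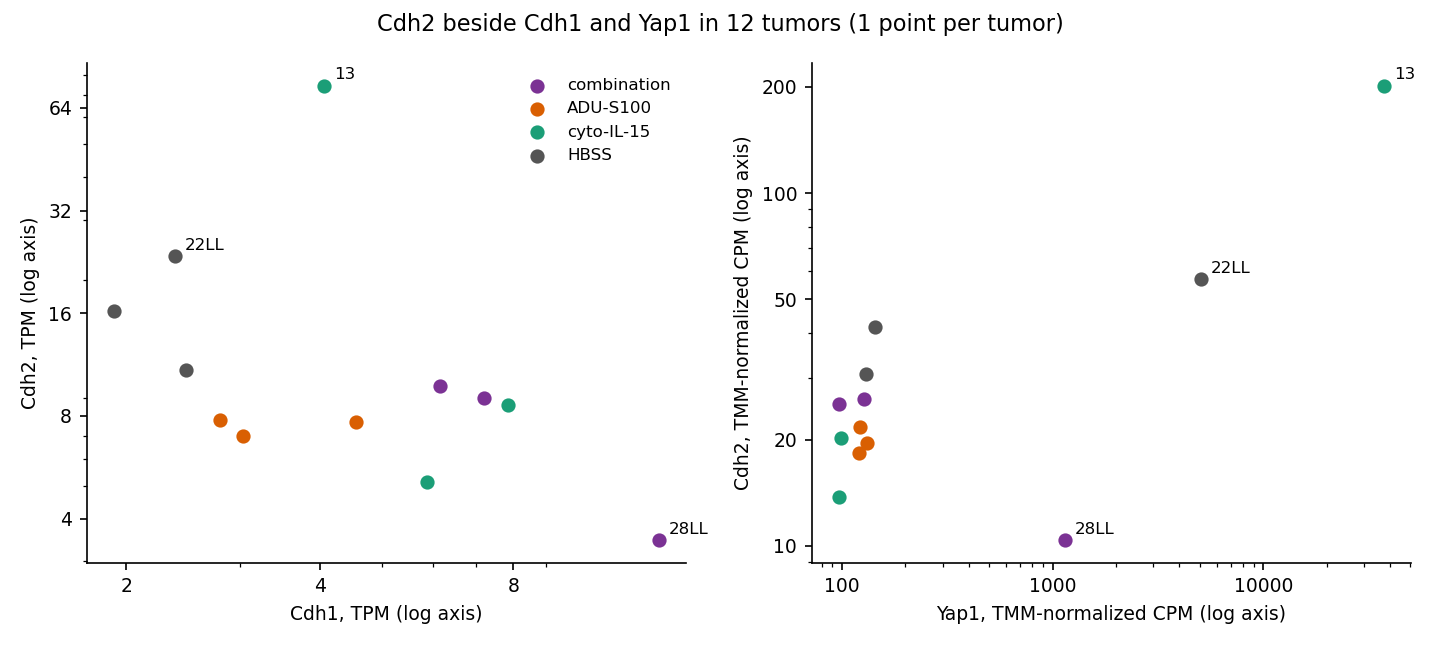
Left, Cdh2 against Cdh1 in TPM, and right, Cdh2 against Yap1 in TMM-normalized CPM, both on log axes, with 1 point per tumor colored by group. HBSS-treated tumors had the least Cdh1, at 1.91 to 2.48 TPM, and tumor 13 had both the most Cdh2 (201 CPM) and the most Yap1 (37361 CPM).

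The wider network of the factors was described with 6 lists. Of 7 E proteins and Id proteins, which pair with the Twist proteins or block such pairs, Id2 rose with ADU-S100 to 51.3 ± 3.71 CPM, against 24.3 ± 4.10 CPM with HBSS (SD, n = 3 each, log2 fold change 1.08, SE 0.14, edgeR adjusted p = 0.00487). The other 6 were not called in that comparison, in which 3.53% of all genes were, and none of the 7 in any other. Against HBSS, the log2 fold change of Id2 was 2.59 (SE 0.67, edgeR adjusted p = 0.193) with the combination. With cyto-IL-15 it was 0.76 (SE 0.30, edgeR adjusted p = 0.898). In both of these comparisons edgeR called 0.0% of all genes. The highest combination-treated tumor had 291 CPM of Id2, while the median of the 6 tumors given ADU-S100 was 52.6 CPM. The combination value therefore leans on that tumor, and no value of Id2 without it is given here. Of 21 mesenchymal effector genes, Tgfbi, a matrix protein induced by transforming growth factor beta, rose where ADU-S100 was given, to 599.7 to 1111 CPM, against 214 to 524 CPM where it was not (log2 fold change 1.02, SE 0.22, edgeR adjusted p = 0.0437). The other 20, with Fn1, Sparc and the collagens among them, were not called in any comparison, and 6 of the 21 had an unadjusted edgeR p under 0.05 in that fit, beside 21.1% of all genes.

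Of 20 epithelial genes that the factors are known to repress, 12 were measured well enough to be tested with ADU-S100 against HBSS. With the combination 14 were tested, and 14 with cyto-IL-15. None was called, beside 3.53% of all genes with ADU-S100, 0.0% with the combination and 0.0% with cyto-IL-15. Where edgeR called no gene at all, the lists could hold no called gene. Their median log2 fold change was -0.09 with ADU-S100 (0.03 over all genes), -0.15 with the combination (0.01 over all genes) and 0.29 with cyto-IL-15 (0.04 over all genes). At an unadjusted edgeR p under 0.05 there were 2 of the 12 with ADU-S100, 6 of the 14 with the combination and 1 of the 14 with cyto-IL-15, beside the 23.9%, 18.2% and 3.8% of all genes given above for these treatments. None of the 9 tested cofactors and relatives of the repressors, the 7 regulators of their protein stability or the 7 tested other transition factors was called in any comparison. The same limit holds for them, since several of these comparisons had no called gene.

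For each gene, the 3 genes with the most similar pattern over the 12 tumors were taken by Pearson's r of log2(CPM + 0.5), out of 14139 genes averaging 1 CPM or more. They are a description, since the closest of so many genes are close by selection, and since tumors 13 and 28LL weigh on r. The closest to Vim was Fosl1, a subunit of the AP-1 transcription factor (r = 0.95, and 0.83 without these tumors), followed by Noc3l and Atic (both 0.95). The closest to Cdh2 were Lrp2 (0.97, and 0.88 without these tumors), Rasal2 (0.96) and Zfp248 (0.96). The closest to Zeb1 were Slc25a23 (0.99, and 0.93 without these tumors), Armcx1 (0.98) and 4931406C07Rik (0.97).

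Zeb2 and Snai1 had no gene as close. The closest to Zeb2 were Gm37893 (0.91), Dyrk1a (0.91) and 0610030E20Rik (0.89), and those to Snai1 were Lsm14a (0.88), Atg12 (0.87) and Ngrn (0.84). The closest to Snai2 were Tspyl2 (0.95), Cnih2 (0.94) and Nlgn2 (0.93), and to Twist1 2810410L24Rik (0.98), Vps37d (0.97) and 1810059H22Rik (0.96). The closest to Twist2 were Gstp1 (0.96, and 0.94 without these tumors), Eme2 (0.96) and B3galnt1 (0.94). No gene of the 8 was among the 3 closest to another of the 8.

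The genes lie on 5 chromosomes of GRCm38, in the coordinates of the count tables. Vim (13573927 to 13582826), Zeb2 (44983632 to 45117395, minus strand) and Snai1 (167538195 to 167542814) are on chromosome 2, and Zeb1 (5591860 to 5775467) and Cdh2 (16588877 to 16809246, minus strand) are on chromosome 18. Snai2 is on chromosome 16 (14705852 to 14709395), Twist1 on chromosome 12 (33957671 to 33959817) and Twist2 on chromosome 1 (91801461 to 91848028). In tumor 13 the 3 genes of chromosome 2 were each the highest of the 12 tumors, while of the genes of chromosome 18 Cdh2 was the highest and Zeb1 the second lowest.

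Annotated genes on the opposite strand share exonic bases with 3 of the 8 genes, and since the strand setting of the counting is not given in the sources used here, reads of such partners cannot be told apart. Zeb2os shares 467 exonic bases with Zeb2 and had up to 16.3% of its count. Zeb2os was at 5.49 CPM in tumor 13, where Zeb2 was highest, and at 17.6 CPM in tumor 28LL. Its log2 fold change with ADU-S100 against HBSS was 0.45 (SE 0.16, edgeR adjusted p = 0.131), of opposite sign to that of Zeb2. Gm29100 shares 1477 exonic bases with Twist2 and had up to 24.8% of its count, and like Twist2 it was lowest in tumor 13, at 0.116 CPM. Gm10125 shares 198 exonic bases with Zeb1 and had at most 1.92% of its count. The counts of Zeb2 and Twist2 are therefore less certain than those of the other genes.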

How the data were processed

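The deposited values are raw read counts per gene, 1 table per tumor. Per the labels, the authors used bcl2fastq 2.20, Trimmomatic 0.36, STAR 2.5.2b and featureCounts of Subread 1.5.2 on GRCm38, and DESeq2. The annotation release, the strand setting and the treatment of multi-mapped reads are not given in the sources used here. Of 49315 gene identifiers, 48970 were given a symbol.

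edgeR 4.0.16 under R 4.3.3 was run on the 6 tumors of each pair of groups (TMM, filterByExpr with a minimum count of 10 and total of 15, robust quasi-likelihood F test, Benjamini-Hochberg adjustment over all genes tested). Calls needed an adjusted p below 0.05 and a log2 fold change beyond 1 in either direction. The fits of each agent and of the interaction used all 12 tumors. The scripts were tested on simulated counts. Alternatives were DESeq2 1.42.0 on 6 or 12 tumors, edgeR with all 12 tumors, other size factors, no filter, no fold threshold, and fits without tumors 13 and 28LL or each tumor in turn. TPM was computed from the deposited counts and lengths, and figures were drawn in Python 3.11.15 with matplotlib 3.10.9. The genes and lists were chosen with earlier results of these data known. Named genes were the 8 genes, Cdh1, the 3 most similar genes each, overlapping genes and up to 4 called genes per list. Yap1 and the single cell type markers were named after their values were seen. Some markers of prostate epithelium are not reported here.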

Additional observations from a re-analysis of the deposited data

How the results depend on the processing

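The count of called genes with ADU-S100 against HBSS, 1 (Cdh2), was 0 with all 12 tumors in one fit by edgeR and 0 by DESeq2, and 0 to 1 when each tumor was left out, with a log2 fold change of Cdh2 between -1.31 and -0.86. In every other comparison the count stayed 0 in all alternatives run. Signs turned mostly with tumor 13. Without tumors 13 and 28LL, the log2 fold change of Cdh2 was -1.35 with cyto-IL-15 against HBSS, 0.22 with ADU-S100 against cyto-IL-15, 0.59 with the combination against cyto-IL-15 and -0.44 for cyto-IL-15 given. That of Twist2 was 0.49 with cyto-IL-15 against HBSS, and that of Twist1 was 0.20 with the combination against cyto-IL-15. Leaving out each tumor in turn moved the log2 fold change of Cdh2 between -1.34 (without tumor 13) and 1.34 with cyto-IL-15 against HBSS, between -2.50 and 0.23 (without 13) with ADU-S100 against cyto-IL-15, between -2.43 and 0.27 (without 13) with the combination against cyto-IL-15, and between -0.54 (without 13) and 0.64 for cyto-IL-15 given. It moved Twist2 between -1.10 and 0.49 (without 13) with cyto-IL-15 against HBSS, and Vim between -0.18 (without 17LL) and 0.082 with ADU-S100 against HBSS. It moved Twist1 between -0.47 and 0.14 (without 28LL) with the combination against HBSS, and between -0.26 and 0.34 (without 28LL) with the combination against cyto-IL-15. No paired analysis was possible because the labels do not link tumors of one group to those of another. Some tumor names share a number across groups, but the labels do not say what it stands for. Each of the 8 genes had 82 or more counts in every tumor.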
